A study of Mus musculus with 4 samples.

Results

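The genes described here encode small GTPases of membrane traffic and the proton pump of vesicles, measured in area CA1 of the mouse hippocampus. Members were all probe sets with exactly 1 platform gene symbol in which Rab, Arf or Arl is followed by a digit, or which begins with Atp6v. Rab3a was left out by that rule, with its 2 probe sets. This gave 83 probe sets for 62 genes, out of 12488 probe sets on the array. Each gene is represented by its brightest probe set, and the others are reported beside it. Of the 62 genes, 56 passed a filter on dim probe sets (a mean signal, on the log2 scale, of at least 116.4), and 6 did not. The whole array held 7237 such probe sets, or 5544 genes with 1 symbol by the same choice of probe set. The platform symbol of all 83 probe sets was also the current one in the reference table.

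The study held 4 samples of total RNA from CA1 of young male C57BL/6J mice, an inbred strain, each on 1 Affymetrix array. All were controls that an experimenter had handled, with no other treatment. They were taken 1, 2, 4 and 6 h after other mice, not analysed here, had received their last shock. With 1 array per hour, differences between hours have no replicate check, and how many mice gave each sample was not given in the sources used here. Signals are the authors' scaled intensities on a linear scale. A signal is compared only between arrays for the same probe set, because binding strength varies from one probe set to the next.

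Rab, Arf and Arl proteins are switches that bind membranes when loaded with GTP and release them after GTP is hydrolysed. Each Rab marks particular membranes of the secretory or endocytic route, whereas Arf proteins recruit coats and Arl proteins serve the Golgi, microtubules and cilia. The vesicular proton pump is a rotary motor: its cytosolic V1 sector splits ATP and turns a ring in its membrane sector, V0, which moves protons into vesicles. In neurons the resulting gradient drives the loading of transmitter into synaptic vesicles, and it acidifies endosomes and lysosomes in every cell.

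The 2 h array stood apart in RNA quality measures. The ratio of 3′ over 5′ signal of the control transcript Gapdh was 1.08 on the 2 h array, with 4.10, 3.62 and 3.95 on the 1, 4 and 6 h arrays, and that of beta-actin was 1.72 against 2.27, 2.59 and 2.93. The CA1 pyramidal markers had probe sets for 4 of 6 genes, 3 of them past the filter, and their summed signal was 3864 at 2 h against 4014 to 4671 on the other arrays. The pyramidal marker Wfs1 had 1877 at 2 h against 2293, 2484 and 2508. Camk2a, a kinase abundant in these neurons, was too dim to pass, at 351 at 2 h against 41.0, 195 and 43.3. Choroid plexus markers (4 of 5 genes) summed to 1857 at 2 h against 905, 662 and 1141, and dentate granule markers (4 of 5) to 396 against 697, 688 and 570. The choroid plexus markers did not move together: Ttr had 892 at 2 h against 222, 107.5 and 356 and Igfbp2 711 against 317, 332 and 350.3, whereas Kl had 177.5 against 309, 183 and 270.5 and Folr1, too dim to test, 76.6 against 55.9, 39.5 and 164. The granule cell factor Prox1 had 12.5 against 57.9, 17.8 and 18.2, under the floor of 36.8 on 3 of the 4 arrays. Summed signals at 2 h lay within the range of the other arrays for microglial markers (5 of 5 genes, 5748 against 5325 to 5900.5) and blood markers (2 of 2, 2620 against 2313 to 3166). They were 19890 against 19943 to 25969 for oligodendrocyte markers (5 of 6), and 15674 against 12406 to 13453 for astrocyte markers (4 of 5). Markers within a sum moved apart. C1qa had 1623 at 2 h against 905, 834.5 and 796, and Cx3cr1 was highest too. Csf1r and Ctss, also microglial, were lowest, with 1334 against 1724, 1604 and 1878 for Csf1r. The blood marker Alas2, too dim to test, was highest at 2 h, whereas Hba-a1 lay among the others. Of the oligodendrocyte markers past the filter, Mobp was lowest and Mbp, Mog and Mag highest. Aldoc made up most of the astrocyte sum, with 12280.1 at 2 h against 8996, 9288 and 9831, while Gfap was lowest at 2 h, with 1740.4 against 2165, 2354 and 2523. The part of RNA quality and of other cells in the 2 h values below was not tested. In tissue samples, fewer cells of a type and less RNA per cell cannot be told apart.

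The membrane sector of the pump was mostly higher on the 2 h array and the cytosolic sector mostly lower. Of 6 V0 genes, 5 had their highest signal of the 4 arrays at 2 h, beside 28.9% of all genes, and 1 its lowest, beside 32.5%. Of 7 V1 genes, none had its highest and 5 had their lowest at 2 h, beside the same 28.9% and 32.5%. The median log2 difference between the 2 h array and the mean of the other 3 was 0.60 for V0 and -0.23 for V1. It was -0.01 for all 7237 probe sets and -0.02 for all genes. All 7 V1 genes were among the 1987 brightest genes, where the median was -0.07. Of these 1987 genes, 812 were above the mean of the other arrays at 2 h, beside 2668 of all 5544 genes. No test of these medians was made.

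Atp6v0a1, the form of the proton-conducting a subunit found in synaptic vesicles, had the widest range of all members. Its 2 h signal was 1835, with 342, 369 and 433 on the 1, 4 and 6 h arrays. The 2 h value was 4.24 times the highest other array, and the other 3 lay within 1.26-fold. A second probe set of this gene was too dim to test, with 18.2, 14.7, 50.6 and 50.9 at 1, 2, 4 and 6 h, and 2 of these 4 values were under the floor of 36.8. Atp6v0b, a proteolipid of the rotating ring, had 4934 at 2 h against 1618, 2081 and 1589, which is 2.37 times the highest other array. Atp6v0a2, the a subunit of the Golgi and endosomes, had 1593 at 2 h against 757, 982 and 863.5. Its other 2 probe sets were also highest at 2 h but stood closer to the rest, with 395 against 264, 379.8 and 232 on one and 303 against 243, 271 and 239.8 on the other. Only the brightest probe set of Atp6v0a2 placed 2 h over 1.5-fold above each other array.

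The remaining V0 genes stayed within 1.5-fold over the 4 arrays. Atp6v0d1, which couples the ring to the central stalk, had 4649.8 at 2 h against 3776, 3932 and 4201, a range of 1.23-fold over the 4 arrays and the narrowest of V0. Atp6v0e2, a small subunit found in brain, had 7388 at 2 h against 5183, 6305 and 6283. Its relative Atp6v0e went the other way, with 468 at 2 h against 589, 572.5 and 527. The proteolipid gene Atp6v0c was not analysed here.

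V1 genes stayed within a 1.5-fold range in 5 of 7 cases, beside 48.8% of all genes, and Atp6v1c1 and Atp6v1g1 did not. Of the 1987 brightest genes, which include all 7 V1 genes, 69.8% stayed within that range. Atp6v1a, the catalytic subunit that splits ATP, had 9794 at 2 h against 11874, 11210.3 and 11346. The other 2 probe sets of Atp6v1a were lowest at 2 h as well, with 4897.5 against 6647, 6937 and 7376 and with 1747 against 2240.3, 1978 and 2197. Atp6v1b2, the nucleotide-binding B subunit of brain, had 10790.1 at 2 h against 12011.5, 12010.8 and 12697. Its dimmer probe set, whose suffix marks probes that more than 1 transcript can share, did not repeat this. It had 528 at 2 h against 467, 376 and 615. On the brightest probe set of both genes the whole range stayed under 1.5-fold, and no replicate measures the spread within an hour.

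Atp6v1g1, a subunit of the outer stalk, had the widest range of V1, 2.01-fold, with 1786 at 2 h against 3585, 2229 and 2434. Here the 1 h array was high as well as the 2 h array low, so the range does not rest on 2 h alone. Atp6v1c1, which ties the 2 sectors together, had 2105 at 2 h against 2829, 2896 and 3372.5, on a probe set with the suffix r. Atp6v1d of the central stalk had 3158 at 2 h against 4643, 3469 and 3992. Atp6v1e1, another stalk subunit, was the steadiest pump gene, with 4759.9, 4672, 4490.5 and 4452 at 1, 2, 4 and 6 h, a mean of 4594 ± 147 (SD, n = 4) and a range of 1.07-fold. Atp6v1h, which regulates ATP splitting, had 2128, 2212.5, 2249 and 1945, a mean of 2133 ± 136 (SD, n = 4), and the 2 h array lay among the others.

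**Figure D1:**
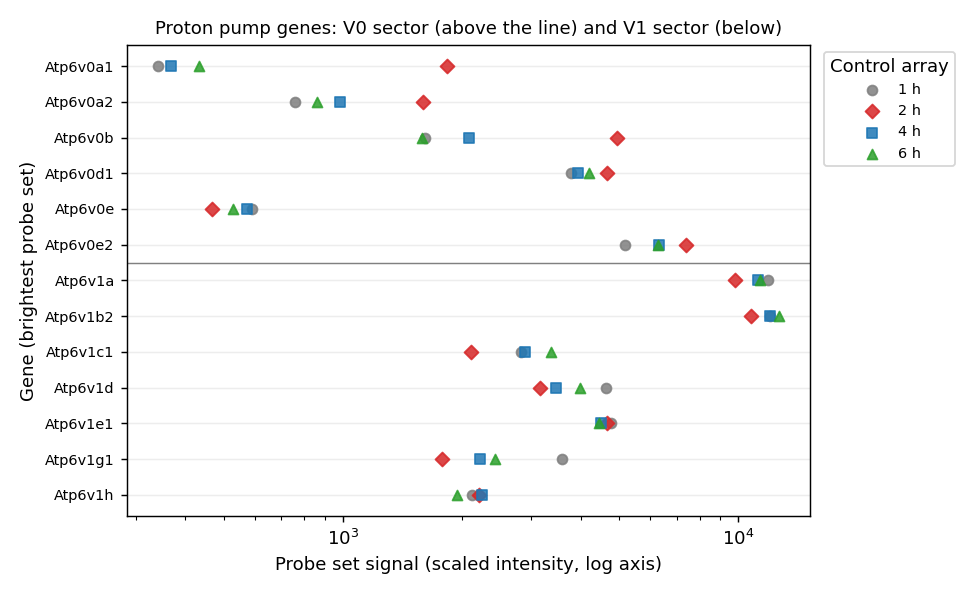
Signal of each proton pump gene (x axis, scaled intensity on a log axis) on the 1, 2, 4 and 6 h control arrays, 1 point per array, for the brightest probe set of each gene (y axis). In 5 of 6 V0 genes above the line the 2 h diamond is the rightmost point, and in 5 of 7 V1 genes below it is the leftmost.

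Promoter sequences are shown for pump genes with high or low signals at 2 h and for Arf3, the other gene far above the rest on that array. They come from RefSeq for build GRCm38.p6, which held 53 of the 62 genes, and each runs from 250 bases before to 50 after the annotated start. Capitals mark the E-box CACGTG, the core of the site bound by TFEB, a regulator of lysosomal genes, and the GC box GGGCGG, each searched on both strands, and no 2 matches overlap in these windows. Atp6v0b lies at chr4:117887280-117887579 on the minus strand and holds 2 E-boxes and 2 GC boxes. Atp6v0a1, at chr11:101010148-101010447 on the plus strand, holds 1 GC box. Atp6v1a, at chr16:44139210-44139509 on the minus strand, holds 1 E-box. Arf3, at chr15:98762943-98763242 on the minus strand in the first of 2 listed windows, holds 3 GC boxes.
Atp6v0b: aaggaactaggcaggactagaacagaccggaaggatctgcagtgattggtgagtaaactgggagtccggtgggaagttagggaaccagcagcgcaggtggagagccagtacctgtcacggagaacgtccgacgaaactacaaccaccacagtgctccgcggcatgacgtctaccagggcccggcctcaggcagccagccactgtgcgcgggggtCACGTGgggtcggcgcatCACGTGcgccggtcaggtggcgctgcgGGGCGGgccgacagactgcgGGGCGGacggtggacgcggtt
Atp6v0a1: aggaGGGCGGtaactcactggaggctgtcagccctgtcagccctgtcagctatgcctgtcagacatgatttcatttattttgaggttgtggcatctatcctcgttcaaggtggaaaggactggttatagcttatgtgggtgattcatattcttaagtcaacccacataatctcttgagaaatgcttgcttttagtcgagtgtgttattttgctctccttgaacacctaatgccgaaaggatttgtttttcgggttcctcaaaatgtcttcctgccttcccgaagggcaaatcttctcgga
Atp6v1a: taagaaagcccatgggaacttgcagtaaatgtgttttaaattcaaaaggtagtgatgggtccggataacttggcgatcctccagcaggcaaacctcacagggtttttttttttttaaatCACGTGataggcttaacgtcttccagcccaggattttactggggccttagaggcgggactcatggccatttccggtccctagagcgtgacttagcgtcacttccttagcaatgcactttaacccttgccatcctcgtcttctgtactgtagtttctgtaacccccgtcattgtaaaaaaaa
Arf3: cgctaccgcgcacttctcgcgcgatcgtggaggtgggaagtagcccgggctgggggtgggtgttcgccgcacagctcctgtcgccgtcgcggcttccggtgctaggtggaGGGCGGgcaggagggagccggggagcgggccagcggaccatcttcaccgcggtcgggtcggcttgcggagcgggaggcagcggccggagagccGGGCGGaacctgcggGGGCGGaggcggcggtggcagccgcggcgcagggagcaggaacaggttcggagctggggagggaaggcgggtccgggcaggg
The E-box was found in 4 of the 8 pump genes with a sequence (Atp6v0b, Atp6v0d1, Atp6v0e and Atp6v1a), beside 8.09% of all 27025 genes. It was present in genes that were higher at 2 h (Atp6v0b, Atp6v0d1) and in genes that were lower (Atp6v1a, Atp6v0e). The GC box was found in 6 of these 8 genes, beside 38.2% of all genes. These are matches of letters in a fixed window, and no binding was measured.

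Rab genes showed no common direction at 2 h. Of 32 Rab genes, 27 passed the filter, with a median log2 difference of -0.11. At 2 h 13 were above and 14 below the mean of the other arrays, beside 48.1% of all genes above it. Rab5b, among the 13, passed the filter only through its 2 h value. No Rab gene reached 2-fold above or below each other array at 2 h, beside 1.37% and 0.956% of all genes. Their signals are given by the membranes they serve.

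Rabs of the endoplasmic reticulum and Golgi stayed within a 1.5-fold range in 4 of 6 genes, beside 48.8% of all genes. Rab1a and Rab33a did not. Rab6a, which directs traffic back through the Golgi, had the narrowest range of these 6 genes, 1.17-fold, with 7802 at 2 h against 8698, 9102 and 8314. Its dimmer probe set had 1325.5 at 2 h against 1451, 1670.2 and 1617, again lowest at 2 h. Rab1a, needed for transport from the endoplasmic reticulum to the Golgi, ranged over 3.13-fold with 405, 616, 217 and 678 at 1, 2, 4 and 6 h, and here the 4 h array was the low one. A second Rab1a probe set was too dim to test, at 13.1 to 62.7. Rab2a, which acts between the same compartments, had 1759 at 2 h against 1928, 1468 and 1718, a mean of 1718 ± 190.1 (SD, n = 4), and its second probe set, at 2.2 to 21.4, was under the floor on every array. Rab18 had 2639 ± 290.2 (SD, n = 4). Rab33b, a Golgi Rab with a part in autophagy, had 643 at 2 h against 784, 665 and 715 on the brighter probe set (suffix f). On the dimmer, Rab33b had 244 at 2 h against 419, 482.5 and 389.9. Rab33a, its close relative, was lowest at 2 h too, with 386 against 553, 655 and 467.5.

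Rabs of exocytosis stayed within 1.55-fold on their brightest probe sets. Rab3b, a synaptic vesicle Rab, had 561 at 2 h against 571, 479 and 509.8, a range of 1.19-fold. Rab8a, which carries cargo from the Golgi to the plasma membrane, had the widest range of the group, with 1065 at 2 h against 687, 776 and 785. Rab8b was dim and had 129 at 2 h against 121, 165 and 157. The probe sets of Rab10, which acts in the same step, differed: the brighter had 1416 at 2 h against 1323.5, 1199.8 and 1596, within the range of the others, while the dimmer had 887 against 333, 492 and 515, above all of them.

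Among Rabs of early and recycling endosomes, the 3 forms of Rab5 did not share a pattern. Rab5a, which controls fusion of early endosomes, had 1916, 2133, 2242 and 2206 at 1, 2, 4 and 6 h, a range of 1.17-fold. Rab5b ranged over 4.50-fold, with 51.3, 231, 182.5 and 129, so that the 1 h array was more than 2-fold below each other one. That 1 h signal lies within 2-fold of the floor of 36.8. Rab5c had 709.7, 778, 715 and 355 and was low at 6 h only.

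Rab4a and Rab4b, which return receptors quickly to the cell surface, were both highest at 2 h. Rab4b had 1239.5 at 2 h against 549, 700.0 and 549, which is 1.77 times the highest other array. Rab4a had 1197 at 2 h against 655, 940 and 924.5. Rab11a, of the slow recycling route, had 1258 at 2 h against 1562, 1515 and 1359 on the brighter probe set and 389 against 433, 392 and 352 on the dimmer. Rab11b had 3070.4 at 2 h against 3488, 4104 and 2742, inside the range of the others. Rab14, which moves between the Golgi and endosomes, was low at 2 h on its brightest probe set, with 3577 against 5445, 5821 and 5307. The second Rab14 probe set had 199 at 2 h against 184, 249 and 289, and the third, too dim to test, had 74.1 against 117, 94.7 and 69.0. Rab21 (698 ± 58.9, SD, n = 4), the epithelial Rab25 (261 ± 52.2, SD, n = 4) and Rab31 (712 ± 211, SD, n = 4) were not beyond the other arrays at 2 h. A dimmer probe set of Rab31 had 331 ± 44.5 (SD, n = 4).

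Rabs of late endosomes and lysosomes were lowest at 2 h in 4 of 5 genes, beside 32.5% of all genes, with a median log2 difference of -0.37 beside -0.02. One of these 4, Rab7, had probe sets that disagreed. Rab7, which brings late endosomes to lysosomes, had 1037 at 2 h against 1824, 1153 and 1451 on its brighter probe set. Its dimmer probe set went the opposite way, with 975 at 2 h against 166, 311 and 293, or 3.13 times the highest other array, so the direction of Rab7 at 2 h is not settled. The suffix of that dimmer set marks probes that more than 1 transcript can share. Rab34, which positions lysosomes, had the widest range of the group, with 238 at 2 h against 506, 315 and 375.5. Rab9, which returns receptors from late endosomes to the Golgi, had the narrowest, with 1268 at 2 h against 1491, 1427 and 1664. Rab12 had 1520.0 at 2 h against 2147, 1971 and 1798. Rab24, linked to autophagy, was the exception and was highest at 2 h, with 1407 against 1133, 950.5 and 936. Rab28, a Rab of cilia, had 818 at 2 h against 913, 771 and 981.

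**Figure D2:**
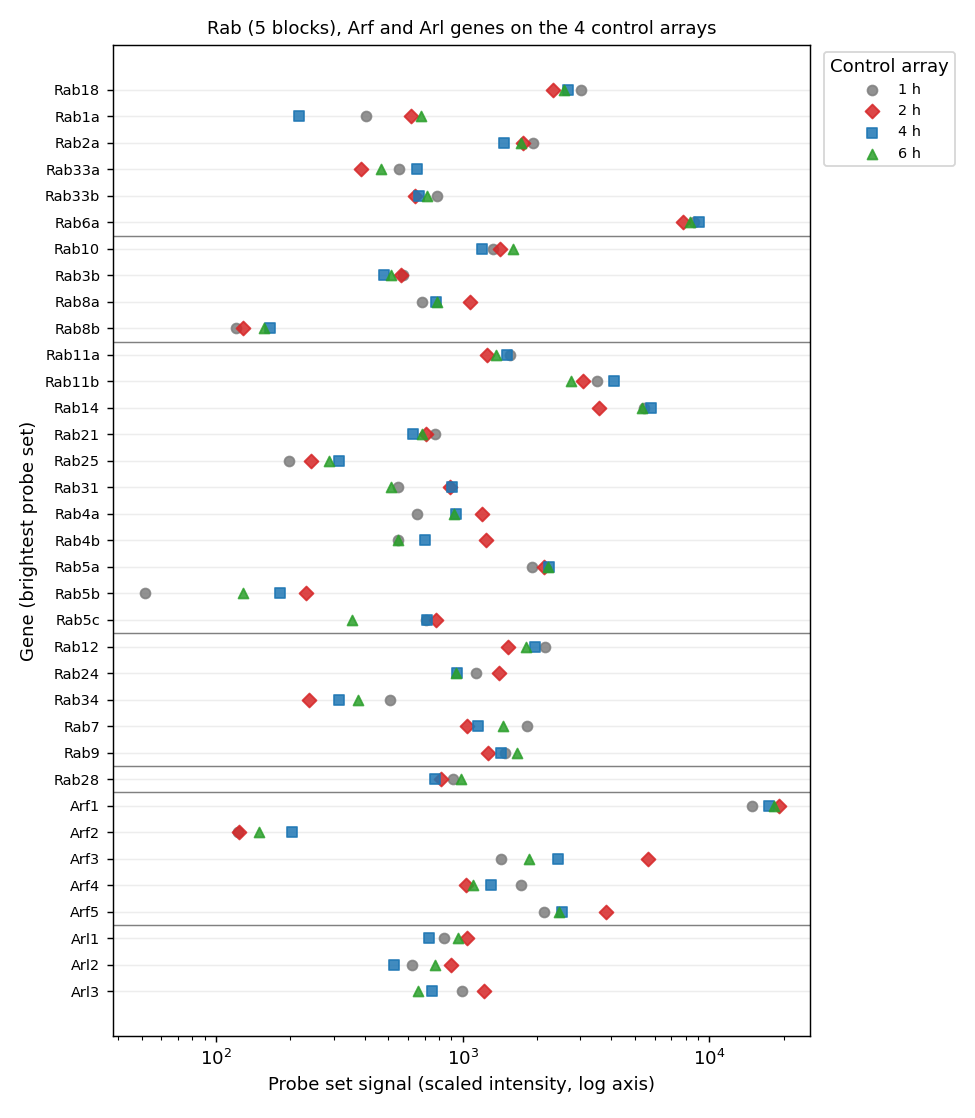
Signal of each Rab, Arf and Arl gene past the filter (x axis, scaled intensity on a log axis) on the 1, 2, 4 and 6 h control arrays, 1 point per array, for the brightest probe set of each gene (y axis). Lines separate, from the top, Rabs of the endoplasmic reticulum and Golgi, of exocytosis, of early and recycling endosomes, of late endosomes and lysosomes, Rab28, Arf and Arl. The 2 h diamond of Arf3 lies far to the right of its other points, and the 1 h circle of Rab5b far to the left.

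Arf genes differed from each other at 2 h, and Arf3 stood out. Arf1, which recruits the coats of Golgi vesicles, was the steadiest Arf gene at 17414 ± 1831 (SD, n = 4), with 19059 at 2 h against 14849.9, 17449.7 and 18297. Arf3, a class I Arf closely related to Arf1, had 5642 at 2 h against 1423, 2438 and 1849 on its brightest probe set, which is 2.31 times the highest other array. All 3 probe sets of Arf3 were highest at 2 h but by unequal amounts. The second had 1072 at 2 h against 838, 933 and 864, only 1.15 times the highest other array, and the dimmest had 852 against 131, 69.8 and 145, or 5.88 times. That dimmest set passed the filter only through its 2 h value, so it had to be high there and adds no support to the other 2. The log2 difference from the mean of the other arrays was 1.60, 0.29 and 2.95 on these probe sets, from brightest to dimmest. Whether probes of Arf3 also bind Arf1 RNA was not tested.

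Arf5, a class II Arf, followed with 3796 at 2 h against 2127, 2524 and 2449. Its class II partner Arf4 was lowest at 2 h, with 1030.1 against 1721, 1307 and 1098. The suffix of the Arf4 probe set, s, marks probes that more than 1 transcript can share. Arf2, the remaining class I Arf, was dim, with 124 at 2 h against 122, 203 and 149. Arf6, which works at the plasma membrane and in endocytosis, was too dim to test on both probe sets, with 44.6, 112, 115 and 119 on one and 98.6, 70.7, 28.6 and 47.3 on the other at 1, 2, 4 and 6 h. These 2 patterns disagree, so no course over time can be read for Arf6.

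All 3 Arl genes had their highest signal at 2 h, beside 28.9% of all genes, by less than 1.5-fold over the next array. Arl3, which releases lipid-modified proteins in cilia, had 1222 at 2 h against 996, 751 and 661.5 and the widest range of the 3. Arl2, which takes part in tubulin folding, had 899 at 2 h against 625, 524 and 773. Arl1, which holds tethering proteins on the Golgi, had 1042 at 2 h against 841, 729.9 and 959.

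Genes named for binding a Rab or an Arl, and 2 transcripts from strands opposite to Rab genes, also matched the rule. Arl2bp, which binds Arl2, had 2717, 4203, 7163 and 4623 at 1, 2, 4 and 6 h, a range of 2.64-fold with the 4 h array highest. Arl14ep had 1168, 938, 989 and 1160.4, a mean of 1064 ± 118 (SD, n = 4), and its dimmer probe set, too dim to test, had 105, 146, 23.6 and 26.4. Rab3il1, an exchange factor for Rab proteins of exocytosis, had the narrowest range of all members, 1.06-fold, with 184, 190.4, 185 and 179.9 at 1, 2, 4 and 6 h and a mean of 185 ± 4.31 (SD, n = 4). Rab3ip, an exchange factor for Rab8, had 346 at 2 h against 381, 396.5 and 462, while its dimmer probe set had 239 against 165, 208 and 190.2. Rab11fip5, a partner of Rab11, had 688 ± 75.6 (SD, n = 4). Rab5if, a factor that binds Rab5, had 1204 at 2 h against 1985, 1946 and 2301. The opposite-strand transcripts were dim: Rab26os had 88.1 at 2 h against 146, 146 and 151, and Rab10os had 142, 219, 203 and 77.1 at 1, 2, 4 and 6 h.

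Counted together, 3 of 56 genes, or 5.36%, were at least 2-fold above each other array at 2 h (Arf3, Atp6v0a1 and Atp6v0b). The background was 1.37% of all genes and 2.06% of all probe sets. At least 2-fold below each other array at 2 h were 0 of 56, beside 0.956% of genes and 1.06% of probe sets. At 1.5-fold, 6 genes (10.7%) were above, where Arf5, Atp6v0a2 and Rab4b joined, beside 4.6% of genes. Below were 2 (3.57%), Rab26os and Rab5if, beside 4% of genes. Without any threshold, 28 genes lay above and 28 below the mean of the other arrays, beside 48.1% of all genes above it, and the median log2 difference was -0.04. The 2 h array gave the highest value of the 4 in 19 genes (33.9%), beside 28.9% of all genes, and the lowest in 21 (37.5%), beside 32.5%. Rab5b passed the filter only through its 2 h value, and it is among the 19 and among the 28 above the mean. Genes of this kind were not taken out of the shares over all genes. With 1 array at 2 h, none of these counts has a test, and the 3 genes come from 56 that were chosen by name.

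**Figure D3:**
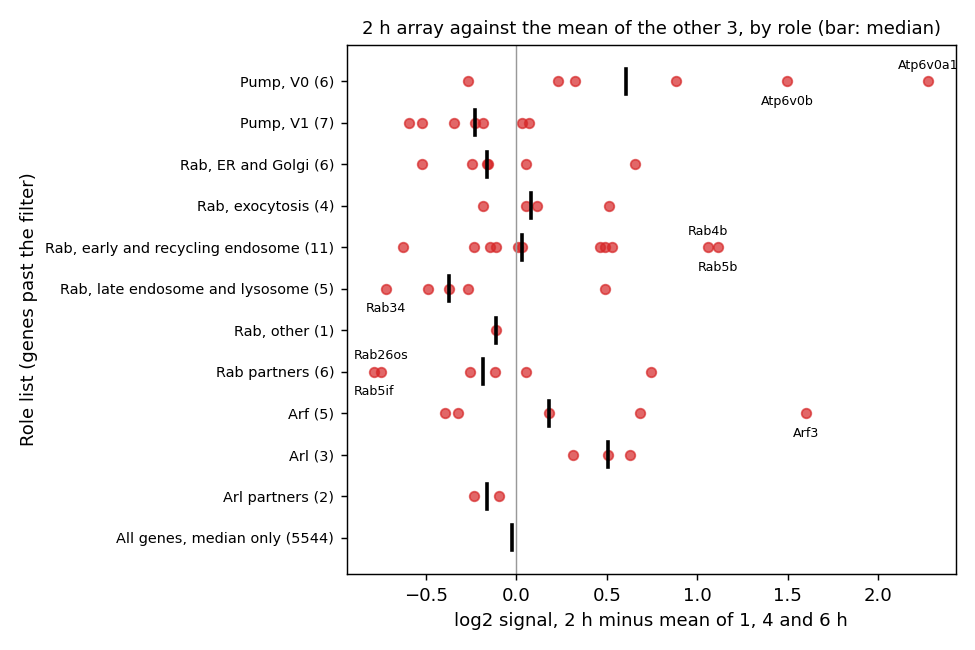
Difference in log2 signal between the 2 h array and the mean of the 1, 4 and 6 h arrays (x axis) for each gene past the filter, 1 point per gene, by role list (y axis, number of genes in brackets), with a bar at the median of each list and of all 5544 genes. V0 points reach 2.27 for Atp6v0a1, the V1 points lie between -0.59 and 0.07, and the bar for all genes lies at -0.02.

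Probe sets of one gene did not always repeat the 2 h difference. Of 17 genes with several probe sets, 12 had at least 2 past the filter. In 8 of these 12 the probe sets differed from the mean of the other arrays in the same direction at 2 h. In 4 (Atp6v1b2, Rab31, Rab3ip and Rab7) they did not. The share over all genes with several probe sets was not worked out, so the count of 8 has no background. In Rab11a, 1 of the 8, the dimmer set differed by only -0.008 on the log2 scale. Leaving aside the dimmest Arf3 set, which passed only through the 2 h array, the gap between probe sets was widest for Rab7, 2.46 on the log2 scale, and narrowest for Rab6a, 0.09. Atp6v0b had 1 probe set, and Atp6v0a1 only 1 past the filter, so their 2 h values rest on a single probe set each.

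**Figure D4:**
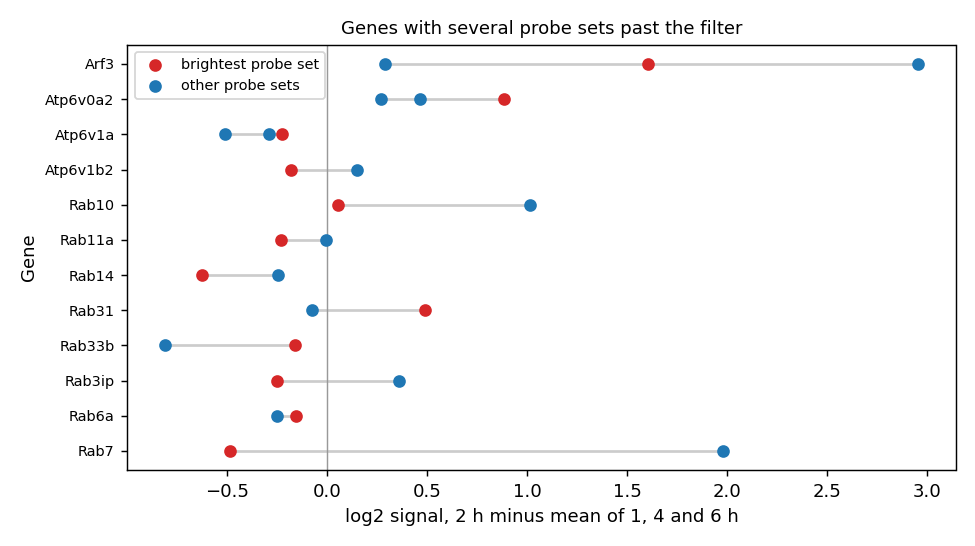
Difference in log2 signal between the 2 h array and the mean of the 1, 4 and 6 h arrays (x axis) for every probe set past the filter of the 12 genes with several (y axis), with the brightest probe set in red and the others in blue. The probe sets lie on opposite sides of 0 for Rab7, at -0.48 and 1.98, and on one side but far apart for Arf3, whose rightmost set passed the filter only through the 2 h array.

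Over the 4 arrays, 28 of 56 genes stayed within a 1.5-fold range, or 50%, beside 48.8% of all genes and 46.4% of probe sets. Within 2-fold were 44, or 78.6%, beside 79.7% of genes and 77.4% of probe sets. The median range was 0.59 on the log2 scale, beside 0.60 for all genes. Among the brighter members the signals varied somewhat more than those of other genes, with 20 of 35 within 1.5-fold (57.1%) beside 69.8% of the 1987 genes above the same level of brightness. Without the 2 h array 42 of 55 genes stayed within 1.5-fold (76.4%), beside 69.2% of all genes. Leaving out the 1, 4 or 6 h array in its place gave 34, 32 and 31 of 56, beside 60.6%, 58.9% and 59.8% of all genes. Set against the 1 h array, the log2 differences of the 56 genes had an SD of 0.74 at 2 h, 0.47 at 4 h and 0.39 at 6 h, where all genes had 0.62, 0.51 and 0.52.

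**Figure D5:**
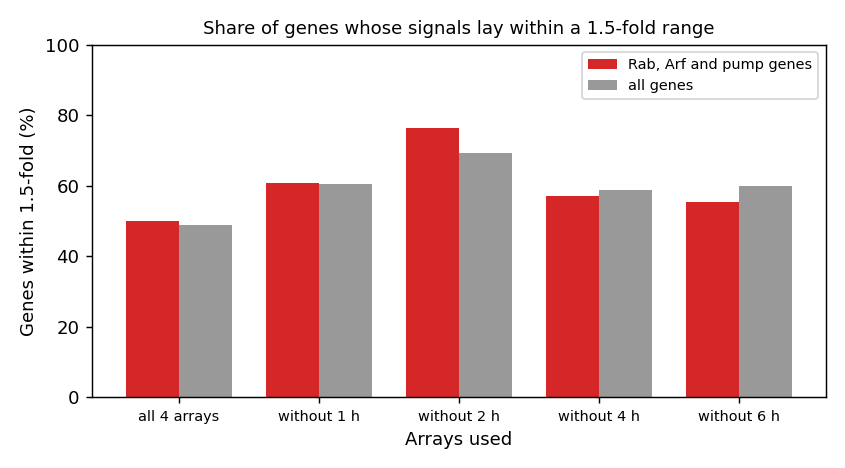
Share of genes whose signals lay within a 1.5-fold range (y axis, percent) over all 4 control arrays and with each array left out (x axis), in red for the Rab, Arf and pump genes and in grey for all genes. The red bar stands at 76.4% without the 2 h array and lies between 50% and 60.7% for the other choices.

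Against the 1 h array, 2-fold differences were more frequent at 2 h than at 4 or 6 h. At 2 h, 6 genes (10.7%) were at least 2-fold higher (Arf3, Atp6v0a1, Atp6v0a2, Atp6v0b, Rab4b and Rab5b), beside 5.68% of genes and 6.92% of probe sets. At least 2-fold lower were 2 (3.57%), Atp6v1g1 and Rab34, beside 2.98% and 3.29%. Rab5b passed the filter only through its 2 h value, so 5 higher genes remain without it. At 4 h, 2 (3.57%) were higher (Arl2bp and Rab5b), beside 3.05% of genes and 3.69% of probe sets, and 0 lower, beside 2.42% and 2.51%. At 6 h, 1 (1.79%) was higher (Rab5b), beside 3.26% and 3.74%, and 0 lower, beside 2.67% and 2.79%. At 1.5-fold, 13 genes were higher and 7 lower at 2 h (23.2% and 12.5%), beside 14.3% and 12.3% of genes, and Rab5b is again among the 13. At 4 h these counts were 6 and 4 (10.7% and 7.14%), beside 9.29% and 7.45%. At 6 h they were 3 and 4 (5.36% and 7.14%), beside 9.18% and 7.27%. The call of Rab5b at all 3 hours comes from its low 1 h signal of 51.3, which made it the 1 gene at least 2-fold below each other array at 1 h, beside 1.14% of genes.

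No member had a trend over the hours that passed the test. Limma, fitted as a line of log2 signal on the hour over all 7237 probe sets with 2 residual degrees of freedom, called 0 of 56 at an adjusted p of 0.05, beside 0% of all probe sets. The smallest adjusted p by limma was 0.9996. At an unadjusted p of 0.05 limma gave 2 of 56, beside 2.71% of probe sets. These were Rab5c, with a slope of -0.20 ± 0.08 log2 per hour (SE, limma), and Arl3, with -0.16 ± 0.07. Without the 2 h array limma called 1 of 55, Arl2bp, with a slope of 0.18 and an adjusted p of 0.0362, and 0.443% of all probe sets. That fit had 1 residual degree of freedom and an infinite prior, so it rests on a spread shared between probe sets, and the 4 h signal of Arl2bp lay above its 6 h signal. P-values over all 4 arrays combine each probe set's spread about a line with a spread shared by probe sets of like brightness. The shared part had 5.325 degrees of freedom, beside 2 residual ones. Both spreads come only from these 4 samples and may be technical.

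The 6 genes that did not pass the filter were Arf6, Rab3d, Rab17, Rab20, Rab23 and Rab35. Rab3d, a Rab of secretory granules, had 43.6, 60.1, 49.3 and 46.7 at 1, 2, 4 and 6 h, and Rab35, of the recycling route, had 35.4, 43.4, 25.8 and 39.6. Rab17, known from epithelia, had 58.4, 16.4, 33.5 and 106. Rab20 had 55.6, 50.3, 88.7 and 37.3, and Rab23, which restrains hedgehog signalling, had 46.2, 121, 96.3 and 143. At signals this dim, beside a floor of 36.8, no order between arrays is read.

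Regulators, coats and accessory proteins of the same routes were looked up as a list of 57 genes. Of these, 40 had a probe set with 1 symbol and 38 passed the filter. None was at least 2-fold above or below each other array at 2 h, beside 1.37% and 0.956% of all genes. Limma called 0 of the 38 for a trend, and 20 stayed within 1.5-fold, beside 48.8% of all genes. The median log2 difference at 2 h was 0.02, with 20 genes higher and 18 lower, beside 48.1% of all genes higher. The differences ran from -0.74 for Cyth2 to 1.22 for Gga1, which had 492 at 2 h against 163, 289 and 201. On the probe sets used, the pump's accessory subunits were lower at 2 h than on the other arrays. Atp6ap1 had 2522 at 2 h against 2926, 2659.5 and 3155 on the brighter of its 2 probe sets, and the dimmer is not given here. Atp6ap2 had 1175.5 against 1784, 1358 and 1610.3. Gdi2, which extracts Rabs from membranes, had 2299.5 at 2 h against 2677, 2341 and 2322. Rabac1, which helps to place Rabs on membranes, had 7470.3 at 2 h against 5199, 5268 and 4788. Ap1b1, an adaptor subunit that Arf1 recruits, had the narrowest range, 1.08-fold, and Arfgap3, which switches Arf1 off at the Golgi, the widest, 3.43-fold, with 117, 341, 402 and 308 at 1, 2, 4 and 6 h.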

How the data were processed

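The deposited table holds linear intensities, 1 for each probe set on each of 4 arrays. The software behind these values was not given in the sources used here. The trimmed means (2% off each end) of the deposited intensities were all 500.3 and differed by 0.00616% at most, so each array appears to have been scaled to one mean, and no normalization was added. Values under the pooled 20th percentile, 36.8, were raised to that level before log2 was taken. Probe sets with a mean log2 at or above the pooled 40th percentile, 116.4, were kept, 7237 of 12488. The 66 manufacturer controls were never kept, but their values entered the pooled percentiles and the trimmed means. Those for Gapdh and beta-actin gave the quality ratios.

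Genes were named through the platform's annotation. Limma (3.58.1, R 4.3.3) fitted a slope per hour with a mean-dependent prior and two-sided tests, adjusted by Benjamini-Hochberg over all kept probe sets, and the fit was tested on simulated data. Other steps used Python 3.11.15 and pandas 2.3.3. Each hour has 1 array, so differences between hours are counts and folds with no test, and the number of arrays limits the precision. The members, role lists, list of regulators, markers and tests were chosen with earlier results of these data known. Described with all 4 values were a set of members picked by name (Atp6v0c was not analysed here), the widest and narrowest range in each role list, members 2-fold from each other array at 2 h, outlying members and their other probe sets, and the other members and the regulators named were chosen after their values were seen. Alternatives covered normalization, floor, filter, probe sets, time scale, prior, fold threshold, comparison array and leaving out each array.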

Additional observations from a re-analysis of the deposited data

Results flagged for a closer look

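With the 4 control arrays taken as one set, Dixon's ratio (the gap of the most distant array divided by the whole range, on the log2 scale) passed its critical value for 4 samples in 3 of 56 genes. Chance flags about 1 in 20 such sets, and 6.01% of all genes passed. Atp6v0a1 had a ratio of 0.86 because its 2 h signal of 1835 lay far above 342, 369 and 433. Rab26os had 0.935, with 88.1 at 2 h below 146, 146 and 151. Rab5c had 0.883, with 355 at 6 h below 709.7, 778 and 715.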

How the results depend on the processing

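The count of genes at least 2-fold above each other array at 2 h was 3 under both other scalings, both floors, both filters and both choices of probe sets. With probe sets averaged, Arf3 includes its dimmest set, which passed the filter only through its 2 h value, so that setting adds no support for Arf3. The count was 3 to 4 with each other array left out, which can hardly lower it, as fewer arrays then have to be exceeded. The count below was 0 under all of these, and at 1.5-fold the counts were 6 and 2. The median log2 difference of V0 at 2 h stayed between 0.43 and 0.79 under the 12 alternatives, which were chosen after seeing the data. That of V1 stayed below 0 but moved to -0.12 with quantile normalization, -0.28 with median centring and -0.34 with a gene's probe sets past the filter averaged. It was -0.20 without suffixed probe sets and -0.28 against 1 h, and lay between -0.25 and -0.20 with an array left out. The median over all members, -0.040, has no stable sign: it was -0.020 with quantile normalization, -0.093 with median centring, 0.021 without the filter and 0.012 with the filter at the 60th percentile. It was 0.032 with a gene's probe sets past the filter averaged, 0.021 without suffixed probe sets, 0.033 against 1 h, and -0.074 to -0.011 with an array left out. The cause was not tested. The 2 h signal over the highest other array, also tried after seeing the data, ranged over 2.23 to 3.05 for Arf3, 4.15 to 4.97 for Atp6v0a1 and 2.28 to 3.05 for Atp6v0b. Leaving out an array can only hold or raise such a fold on a given probe set. The dim second probe set of Atp6v0a1, under the filter, was in no average. Counts at least 2-fold from 1 h were 8, 2 and 1 at 2, 4 and 6 h and became 20, 10 and 7 at 1.5-fold. At 4 h the count was 4 without the filter, 1 with the stricter filter, 1 without suffixed probe sets, and 1 to 2 with an array left out. At 6 h it was 2 with quantile normalization, 2 with median centring, 0 with the floor at the 30th percentile, 3 without the filter, 0 with the stricter filter, 0 without suffixed probe sets, and 0 to 1 with an array left out. Without the 2 h array Rab5b no longer passed the filter, which takes 1 from each of these last 2 counts. Genes within 1.5-fold numbered 28, 31 to 42 with an array left out, and 44 at 2-fold. Fewer arrays or a wider limit are bound to hold or raise such a count, apart from genes that enter or leave by the filter. Trend calls by limma were 0 except without an array, where they were 0 to 1 (Arl2bp without 2 h). No paired analysis was possible because each hour has 1 sample.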

Other observations

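A longer form of the E-box, with GT before and AC after the letters CACGTG, was found in the promoter windows of 4 of the 53 members with a sequence (Arl2, Rab21, Rab24 and Rab5a), beside 0.37% of all 27025 genes, and in 0 of 8 pump genes. The plain E-box was found in 14 of the 53, beside 8.09% of all genes, and the GC box in 41, beside 38.2%. These shares are descriptions of a set chosen by name and have no test. At 2 h Arl2 and Rab24 gave the highest signal of the 4 arrays, whereas Rab21 and Rab5a lay between the others.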
